A study of Xenopus laevis with 28 samples.

Results

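Testis and ovary of the frog Xenopus laevis were compared directly. The comparison set 2 testis libraries against 2 ovary libraries out of the 28 libraries of 14 tissues in the series. All animals belonged to the J strain, an inbred line of the African clawed frog, and no treatment or mutation is recorded for them. Each testis library came from 1 male, and each ovary library from 1 female that was a sibling of that male and also gave most other tissues of its dataset. The first library of each gonad belongs to the Taira dataset and clutch and the second to the Ueno dataset and clutch, and in this text the Taira value always stands before the Ueno value. Each gonad thus rests on 2 animals, and dataset, clutch and individual animal cannot be told apart. Whole organs were minced, so a library mixes germ cells of every stage with supporting, interstitial, vessel and blood cells, and the ages and breeding state of the donors are not given in the sources used here. The members of the comparison are all 45831 gene models of the deposited table of TPM, the length-normalised share of a library's transcripts, which sums to the same total in every library. Of these, 33317 reached 1 TPM in at least 2 of the 28 libraries and were tested.

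A frog ovary holds oocytes from early meiotic prophase to full growth, each wrapped in a single layer of follicle cells. Growing oocytes stay arrested in meiosis while they store messenger RNA, ribosomes, histones and proteins for the cleaving embryo, and they secrete a glycoprotein coat. A testis holds cysts of germ cells that divide as spermatogonia, complete meiosis as spermatocytes and build a flagellum and a condensed nucleus as spermatids, with Sertoli cells supporting them and Leydig cells making androgen. Sex in this species is set by a ZW system, in which dmw, a truncated relative of dmrt1 carried on the W chromosome of females, opposes the testis pathway.

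Among the markers chosen to define each gonad, the tested models of zp2, zp3, zp4, gdf9 and bmp15 were all called lower in testis, and those of dmrt1, sycp3, tekt1 and piwil1 all higher. Figla.L, the oocyte transcription factor that drives egg coat genes in mammals, did not follow, at 128 and 40.4 TPM in testis, against 92.1 and 108 TPM in ovary, with overlapping groups (log2 difference -0.46, SE 0.44, adjusted p = 0.52). Without the Taira testis the difference of figla.L was -1.28, and without the Ueno testis 0.36. The remaining 2 testis markers, odf2 and spata4, were among 17 of 52 key symbols that matched no model by name. Models above 0 numbered 34388 and 30541 in testis, against 27895 and 24533 in ovary, and the read depth behind TPM is unknown. Models at 10 TPM or more numbered 13085 and 7808 in testis, against 13424 and 8230 in ovary. Median-of-ratios size factors over models above 0 in all libraries were 2.112 and 0.8499 in testis, against 2.752 and 0.77 in ovary. A Taira value above the Ueno value, where given below, is thus common and by itself not particular to that gene or list. The 2 testis libraries differed more from each other than those of any other tissue, by a median of 0.817 on the log2(TPM + 1) scale, with ovary next at 0.542 and the other 12 tissues between 0.154 and 0.496. Pearson's r across models was 0.849 between the testis libraries and 0.847 between the ovary libraries, against 0.694 between the Taira gonads and 0.768 between the Ueno gonads, and genes are not independent replicates.

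The gonads differed in a large part of the transcriptome. In a limma fit on log2(TPM + 1) that pooled the spread of all 14 tissues, 4893 models (14.7% of those tested) were called higher in testis and 4041 (12.1%) lower, where a call asks for a log2 difference of 1 or more in size with a Benjamini-Hochberg adjusted p below 0.05. The median difference over all tested models was 0.15. Models called higher took 39.7% and 44.9% of the TPM in testis, against 4.16% and 4.76% in ovary, while models called lower took 5.68% and 5.78% in testis, against 37.6% and 46.3% in ovary. These shares describe the chosen models and are no further evidence of a difference. The gonad libraries scattered more than the pooled spread, and the counts depended on how that spread was treated. With library weights estimated by limma, 0.267 for testis and 0.292 for ovary, 1828 models (5.49%) were called higher and 1420 (4.26%) lower, all of them among the calls above. In a fit to the 4 gonad libraries alone, with 2 residual degrees of freedom, limma called no model at an adjusted p under 0.05 (the smallest was 0.139), although 6338 models had an unadjusted p under 0.05. Leaving out the Taira testis cut the models called higher to 3190 and left 4155 lower. The adjusted p-values below are from the pooled limma fit, unless library weights or the replicate block (a term for dataset and clutch) is named. A fit without 1 gonad library leaves 1 library in that gonad, so its own spread adds nothing. For single genes only the log2 difference of such fits is given. Counts of calls from such fits carry this limit.

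**Figure D1:**
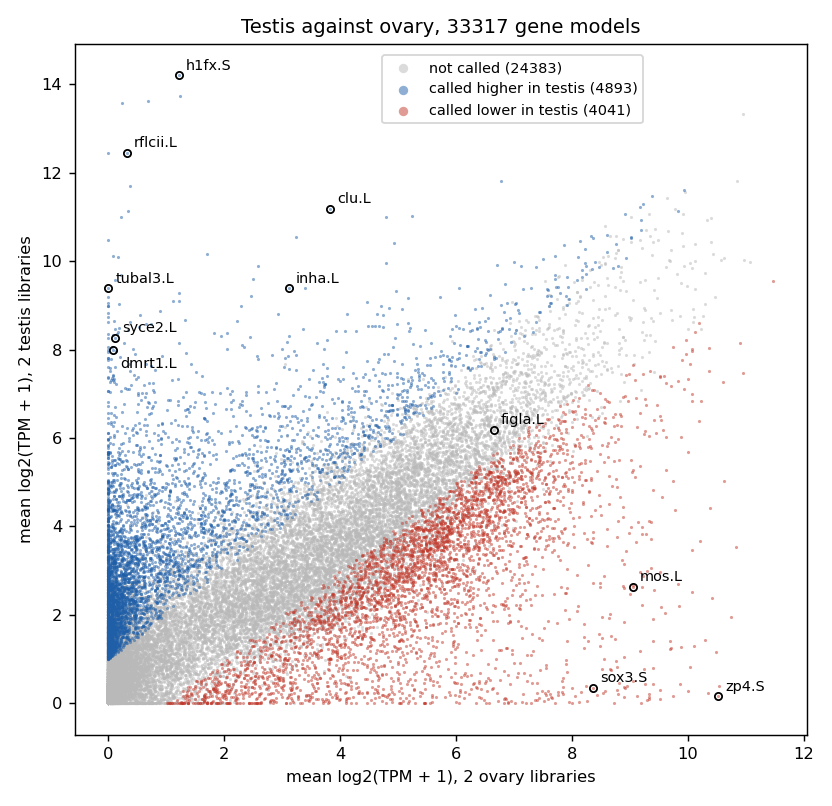
Mean log2(TPM + 1) of the 2 testis libraries (vertical axis) against that of the 2 ovary libraries (horizontal axis), 1 point per tested gene model. Blue points were called higher in testis (4893) and red points lower (4041), and the circled models include h1fx.S and tubal3.L near the vertical axis, zp4.S and sox3.S near the horizontal axis, and figla.L among the uncalled grey points.

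Most called models differed in the same direction in each dataset taken alone. The calls were made from these same libraries, so this is largely set by the call and is no independent repeat. Of the models called higher, 4077 differed by at least 1 on the log2 scale in both the Taira and the Ueno pair, and 3660 of those called lower differed by at least 1 in the other direction in both pairs. Of all tested models 15.0% and 13.8% met these conditions. Opposite differences of at least 1 in the 2 datasets were found for 75 models. Of all 33317 tested models, both testis libraries lay above both ovary libraries in 10267, and both ovary libraries above both testis libraries in 5605. With 2 libraries per gonad such a lack of overlap is thus common, and where it is given below it is no evidence by itself. Among models called higher, 781 were listed at 0 in both ovary libraries, and among those called lower, 103 were listed at 0 in both testis libraries. Models called higher averaged 100 TPM or more in testis in 627 cases, and models called lower averaged 100 TPM or more in ovary in 1078. Among all 14 tissues, testis had the highest mean for 1761 of the models called higher, and brain for 1147. Ovary had the highest mean for 3002 of the models called lower. A call itself favours the gonad with the higher value. The shares of all tested models with these highest tissues, or at 0 in a gonad, are not given here.

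**Figure D2:**
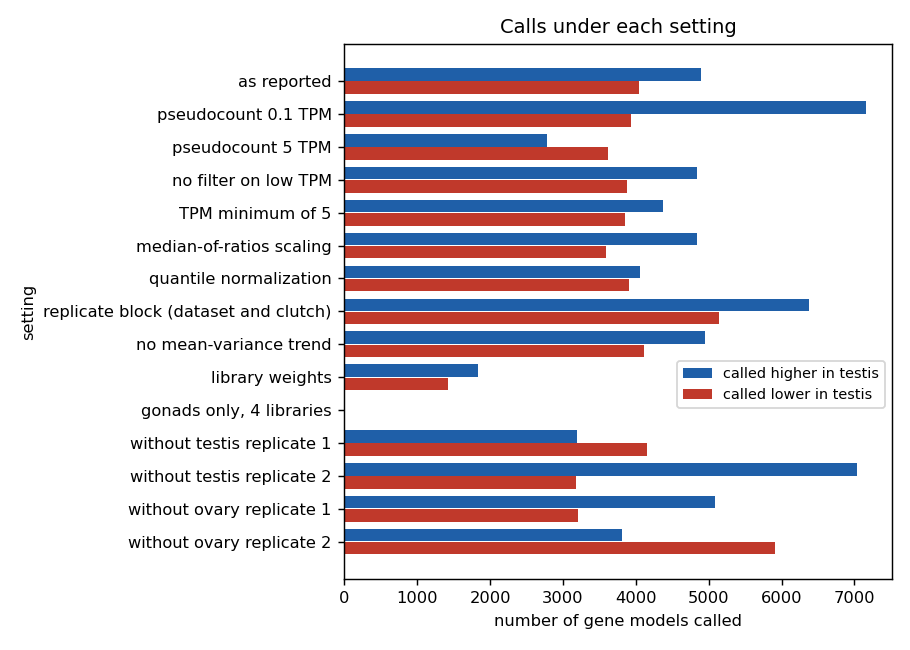
Number of gene models called higher (blue) and lower (red) in testis under each processing setting (rows), with the reported fit at the top. The counts are 1828 and 1420 with library weights, 0 in the fit to the 4 gonad libraries alone, and 4893 and 4041 as reported.

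Genes that set the sex of the gonad and mark its supporting cells were mostly higher in testis. Of 30 tested models on a list of sex determination genes, 16 were called higher and 3 lower (11 and 3 with library weights), with a median difference of 1.91. The testis regulator dmrt1.L (Xelaev18006850m) stood at 292 and 222 TPM in testis, against 0.12 and 0 TPM in ovary (log2 difference 7.92, SE 0.18, adjusted p = 2.91e-15). Its S copy, dmrt1.S, stood at 180.1 and 32.7 TPM in testis, against 1.17 and 0.09 TPM in ovary (log2 difference 5.67, SE 0.48, adjusted p = 6.26e-08). Both copies were far higher in both testis libraries than in either ovary library, and the difference of dmrt1.L was 8.03 in the Taira and 7.80 in the Ueno pair. The W-linked dmw was listed at 0 in both testis libraries, against 0 and 0.61 TPM in ovary, and was too low to be tested.

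Other genes of the testis pathway were higher too. Sox9.S, the transcription factor of Sertoli cell fate in mammals, stood at 68.4 and 35.7 TPM in testis, against 0.03 and 0 TPM in ovary (log2 difference 5.64, SE 0.42, adjusted p = 1.08e-08). Anti-Müllerian hormone, which in mammals removes the female ducts of male embryos, differed between its copies. Its L copy, amh.L, stood at 23.5 and 4.23 TPM in testis, against 0.1 and 0 TPM in ovary (log2 difference 3.43, SE 0.42, adjusted p = 6.01e-06). The S copy, amh.S, overlapped between the gonads and was not called, at 9.65 and 2.05 TPM in testis, against 8.09 and 0.98 TPM in ovary (log2 difference 0.43, SE 0.51, adjusted p = 0.632). The difference of amh.S was 1.53 without the Taira ovary and -0.67 without the Ueno ovary. The receptor amhr2.L stood at 13.4 and 10.04 TPM in testis, against 0.21 and 0.17 TPM in ovary (log2 difference 3.40, SE 0.26, adjusted p = 2e-08). No library of one gonad overlapped the other for sox9.S, amh.L and amhr2.L. The steroidogenic factor nr5a1.L, the zinc finger factors gata4.L and gata4.S, the Wilms tumour factor wt1.S and the Sertoli signal dhh.S were also called higher, with log2 differences of 3.65, 3.26, 3.69, 2.35 and 3.17. The models called lower were sox3.S, sox3.L and foxl2.L. Sox3.S, which belongs to the gene group from which the mammalian testis determinant arose, stood at 0.17 and 0.4 TPM in testis, against 326 and 333 TPM in ovary (log2 difference -8.01, SE 0.38, adjusted p = 2.32e-11). Foxl2.L, the factor that keeps granulosa cells female in mammals, was low in all 4 libraries, at 0.27 and 0.24 TPM in testis, against 0.99 and 5.07 TPM in ovary (log2 difference -1.47, SE 0.33, adjusted p = 0.00214), and its difference was -0.65 in the Taira and -2.29 in the Ueno pair. Without the Ueno ovary the difference of foxl2.L was -0.67, and without the Taira ovary it was -2.27. Foxl2.S was not called, at 0 and 0.2 TPM in testis, against 1.04 and 1.07 TPM in ovary (log2 difference -0.91, SE 0.12, adjusted p = 2.06e-05). The difference of foxl2.S was -1.04 without the Ueno testis. The mean of foxl2.L in brain, the somatic tissue with the highest mean, was 4.29 TPM.

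Markers of the supporting cells did not split by sex as their list names would have it. On the list of Sertoli and Leydig cell genes 17 of 20 tested models (85.0%) were called higher in testis and none lower. With library weights 14 were called higher, and the median difference was 3.22. Clu.L, the secreted chaperone clusterin and a major Sertoli product in mammals, stood at 1625 and 3317 TPM in testis, against 11.6 and 14.99 TPM in ovary (log2 difference 7.35, SE 0.81, adjusted p = 1.5e-06). The list of follicle and ovarian somatic cell genes also had more models higher in testis, 10 of 24 (41.7%) against 1 (4.17%) lower. The counts were 6 and 1 with library weights, and the median was 0.98. Over all tested models the shares were 14.7% higher and 12.1% lower. Among the follicle models called higher were the inhibin subunits: inha.L stood at 288 and 1539 TPM in testis, against 3.62 and 15.2 TPM in ovary (log2 difference 6.27, SE 0.66, adjusted p = 1.02e-06). Inhbb.L stood at 53.4 and 48.4 TPM in testis, against 0.25 and 0.11 TPM in ovary (log2 difference 5.46, SE 0.35, adjusted p = 1.9e-09). Both hormone subunits are made by Sertoli cells as well as by granulosa cells in mammals, and neither overlapped between the gonads. The receptor for follicle-stimulating hormone, fshr.L, stood at 20.02 and 1.93 TPM in testis, against 0.14 and 0.04 TPM in ovary (log2 difference 2.85, SE 0.59, adjusted p = 0.00128), and the receptor for luteinizing hormone, lhcgr.L, at 4.52 and 3.83 TPM in testis, against 0.07 and 0.22 TPM in ovary (log2 difference 2.18, SE 0.36, adjusted p = 0.000162), the second with an adjusted p of 0.114 with library weights. Without the Taira testis the difference of fshr.L was 1.43. Aromatase, which turns androgen into oestrogen and was measured as cyp19a1.L, did not pass the test, at 0.19 and 0.04 TPM in testis, against 2.9 and 0.22 TPM in ovary (log2 difference -0.97, SE 0.44, adjusted p = 0.119), and it rested on the Taira ovary. Its log2 difference was -1.81 without the Ueno ovary and -0.13 without the Taira ovary. In whole tissue, fewer cells of a type and less RNA per cell cannot be told apart, and the share of oocyte RNA in the ovary libraries was not measured.

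**Figure D3:**
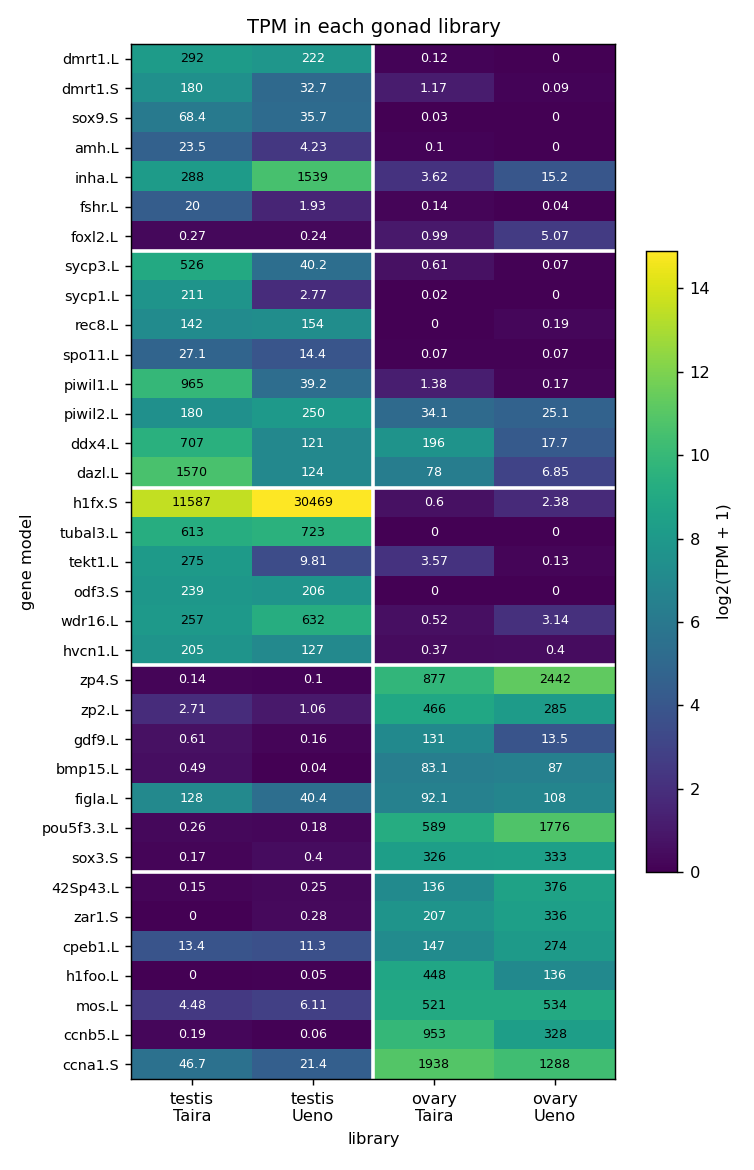
TPM of 35 gene models (rows) in the 2 testis and the 2 ovary libraries (columns), coloured by log2(TPM + 1), with white lines between groups of genes. From top to bottom the groups are sex determination and supporting cells, meiosis and small RNA, sperm, egg coat and oocyte factors, and oocyte RNA, chromatin and cell cycle, and the Taira testis exceeds the Ueno testis for sycp1.L (211 and 2.77 TPM) but not for rec8.L (142 and 154 TPM).

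Meiotic genes were higher in testis. The list of meiosis genes had 20 of 30 tested models (66.7%) called higher and 1 (3.33%) lower. With library weights the counts were 17 and 0, and the median difference was 3.55. Over all tested models the shares were 14.7% higher and 12.1% lower. Syce2.L, a part of the central element of the synaptonemal complex that holds paired chromosomes together, stood at 238 and 396 TPM in testis, against 0.16 and 0 TPM in ovary (log2 difference 8.16, SE 0.25, adjusted p = 1.22e-13). Rec8.L, the meiotic cohesin, stood at 142 and 154 TPM in testis, against 0 and 0.19 TPM in ovary (log2 difference 7.10, SE 0.15, adjusted p = 1.83e-15). These 2 models had like levels in both testis libraries. Other parts of the complex differed between the testis libraries: sycp3.L, of the lateral element, stood at 526 and 40.2 TPM in testis, against 0.61 and 0.07 TPM in ovary (log2 difference 6.81, SE 0.66, adjusted p = 3.05e-07). For sycp3.L the Taira library exceeded the Ueno library in ovary too, at values under 1 TPM. Sycp1.L, of the transverse filament, stood at 211 and 2.77 TPM in testis, against 0.02 and 0 TPM in ovary (log2 difference 4.81, SE 1.0, adjusted p = 0.00127), so that its difference was 7.70 in the Taira pair and 1.91 in the Ueno pair. Without the Taira testis the difference of sycp1.L was 1.90, and without the Ueno testis 7.72. The Taira testis held most of these transcripts, while both ovary libraries lay under both testis libraries. Spo11.L, the enzyme that makes the breaks from which crossovers form, stood at 27.1 and 14.4 TPM in testis, against 0.07 and 0.07 TPM in ovary (log2 difference 4.28, SE 0.24, adjusted p = 3.35e-10). Stra8.S, which licenses entry into meiosis in mammals, stood at 63.9 and 167 TPM in testis, against 0.03 and 0.13 TPM in ovary (log2 difference 6.60, SE 0.27, adjusted p = 3.63e-12). The 1 model called lower was sycp2l.L, the oocyte relative of a lateral element protein, at 0.87 and 0 TPM in testis, against 43.7 and 0.73 TPM in ovary (log2 difference -2.68, SE 0.86, adjusted p = 0.0259), where the Taira testis exceeded the Ueno ovary and the call was lost with library weights (adjusted p = 0.116). The difference of sycp2l.L was -0.34 without the Taira ovary, -2.23 without the Ueno testis and -5.03 without the Ueno ovary.

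Genes of the piRNA pathway were mostly higher in testis. This pathway, in which Piwi proteins guided by small RNAs silence transposons, had 7 of 13 models called higher and 1 lower (6 and 1 with library weights, median 2.28). Piwil1.L stood at 965 and 39.2 TPM in testis, against 1.38 and 0.17 TPM in ovary (log2 difference 6.88, SE 0.82, adjusted p = 4.23e-06). Piwil4.S stood at 41.7 and 37.5 TPM in testis, against 0.03 and 0.03 TPM in ovary (log2 difference 5.30, SE 0.15, adjusted p = 5.49e-14). Piwil2.L stood at 179.9 and 250.3 TPM in testis, against 34.1 and 25.1 TPM in ovary (log2 difference 2.82, SE 0.28, adjusted p = 5.3e-07). Piwil3.L ran the other way, at 0.95 and 0.25 TPM in testis, against 75.5 and 7.06 TPM in ovary (log2 difference -3.99, SE 0.61, adjusted p = 6.5e-05), with a difference of -2.37 without the Taira ovary. In none of these 4 Piwi models did the libraries of the gonads overlap. Ddx4.L, the germ cell helicase Vasa, was abundant in both gonads, at 707 and 121 TPM in testis, against 196 and 17.7 TPM in ovary, and was not called (log2 difference 2.28, SE 1.2, adjusted p = 0.181), but passed with the replicate block (adjusted p = 0.00261). Its difference was 3.98 without the Taira ovary, 0.58 without the Ueno ovary, 1.01 without the Taira testis and 3.54 without the Ueno testis. Dazl.L, an RNA-binding protein of germ cells, stood at 1570.4 and 124 TPM in testis, against 78.05 and 6.85 TPM in ovary (log2 difference 4.16, SE 0.89, adjusted p = 0.00167), and its difference was 2.33 without the Taira testis and 2.49 without the Ueno ovary. Among the other spermatogonial genes id4.S, a marker of stem spermatogonia in mice, was called higher (log2 difference 3.36), and the 3 models called lower were pou5f3.3.L, pou5f3.3.S and pou5f3.2.L, genes of oocyte Oct factors. The spermatogonial list as a whole had 4 models higher (28.6%) and 3 lower (21.4%) of 14, with a median of 0.58. Of all tested models 14.7% were called higher and 12.1% lower.

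Most tested genes of the sperm tail were called higher in testis. Of 71 tested models of the axoneme and flagellum, 48 (67.6%) were called higher and none lower (32 higher with library weights), against 14.7% of all tested models called higher. The median difference was 3.29, and 54 had a log2 difference of 1 or more in both datasets. Odf3.S, of the dense fibres of the sperm tail, stood at 239 and 206 TPM in testis, against 0 and 0 TPM in ovary (log2 difference 7.80, SE 0.35, adjusted p = 1.34e-11). Wdr16.L, a ciliary protein now known as a microtubule inner protein, stood at 257 and 632 TPM in testis, against 0.52 and 3.14 TPM in ovary (log2 difference 7.33, SE 0.56, adjusted p = 1.43e-08). Tekt3.S, a tektin inside the microtubule doublets, stood at 187 and 134 TPM in testis, against 0 and 0.12 TPM in ovary (log2 difference 7.24, SE 0.42, adjusted p = 4.39e-10). Here too the 2 testis libraries differed by gene. These 3 models were within a few fold of each other in them, but tekt1.L stood at 275 and 9.81 TPM in testis, against 3.57 and 0.13 TPM in ovary (log2 difference 4.59, SE 1.01, adjusted p = 0.00195). For tekt1.L the Taira library exceeded the Ueno library in ovary as well, though at low values, with the Ueno ovary near 0. The difference of tekt1.L was 2.25 without the Taira testis and 6.93 without the Ueno testis. The summed TPM of the list was 9910 and 4530 in testis, against 867 and 408 in ovary. It was higher in the Taira library of each gonad, as the size factors were. The radial spoke gene rsph6a.L (4.45), the ciliary transport gene ift172.L (4.30) and the dynein genes dnai2.S (4.75) and dnah1.L (3.76) were also called higher, with the log2 differences given.

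Among the named models a linker histone had the largest difference. Of 10 tested models of the sperm head, acrosome and sperm ion channels, 6 (60.0%) were called higher and none lower (5 higher with library weights, median 3.03). Over all tested models the shares were 14.7% and 12.1%. Only 8 of the 70 symbols on this list matched a model by name. The 6 include h1fx.S and car1_predicted.S, which were also among the 12 named models with the largest difference. H1fx.S (Xelaev18025910m), annotated as a linker histone, stood at 11587 and 30469 TPM in testis, against 0.6 and 2.38 TPM in ovary (log2 difference 12.98, SE 0.95, adjusted p = 9.75e-09). Hvcn1.L, a voltage-gated proton channel that mammalian sperm use, stood at 205 and 127 TPM in testis, against 0.37 and 0.4 TPM in ovary (log2 difference 6.87, SE 0.50, adjusted p = 8.33e-09). The mean of hvcn1.L in kidney, 165 TPM, was like that in testis, 166 TPM. Zpbp2.L, an acrosomal protein that binds the egg coat, stood at 12.2 and 3.91 TPM in testis, against 0 and 0 TPM in ovary (log2 difference 3.01, SE 0.29, adjusted p = 2.5e-07). Both ovaries were at or near 0 for all 3. Among the 12 named models with the largest difference were also tubal3.L, an alpha tubulin, at 613 and 723 TPM in testis, against 0 and 0 TPM in ovary (log2 difference 9.38, SE 0.19, adjusted p = 7.96e-16). Tcte1.L, a subunit of the complex that links flagellar doublets, stood at 541 and 519.6 TPM in testis, against 0 and 0 TPM in ovary (log2 difference 9.05, SE 0.35, adjusted p = 1.94e-12). Fbxo24.L, an F-box gene, stood at 532 and 244 TPM in testis, against 0.23 and 0.06 TPM in ovary (log2 difference 8.31, SE 0.31, adjusted p = 1.06e-12). The synaptogyrin copies syngr4.L and syngr4.S differed by 8.25 and 8.22. Rflcii.1, whose role is not given in the files, differed widely between the testis libraries, at 2180.1 and 85549.7 TPM in testis, against 1.16 and 1.56 TPM in ovary (log2 difference 12.50, SE 1.56, adjusted p = 7.26e-06). Rflcii.L stood at 1334 and 23387 TPM in testis, against 0.41 and 0.1 TPM in ovary (log2 difference 12.13, SE 1.1, adjusted p = 1.36e-07). The other named models were fgfbp3.L, a binding protein of fibroblast growth factors, and car1_predicted.S, fancd2os.L and c9orf9.L, with log2 differences of 8.35, 10.76, 9.46 and 8.85.

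Models on the list of spermatid gene regulators, which also holds a cyclin gene, were called in both directions. Of 21 tested models 7 (33.3%) were called higher and 5 (23.8%) lower, against 14.7% and 12.1% of all tested models. With library weights these counts were 1 and 2, and the shares of all tested models were 5.49% and 4.26%. The median difference was 0.25, or -0.17 after quantile normalization. Mybl1.L, the meiotic Myb factor, stood at 219 and 14.4 TPM in testis, against 2.15 and 0.11 TPM in ovary (log2 difference 4.96, SE 0.81, adjusted p = 0.000129), with a difference of 3.05 without the Taira testis. Rfx2.S, a factor of ciliary and spermatid genes, stood at 63.5 and 65.5 TPM in testis, against 16.98 and 13.7 TPM in ovary (log2 difference 2.01, SE 0.46, adjusted p = 0.00299), and the call was lost with library weights (adjusted p = 0.217). The cAMP-responsive factor crem, which drives spermatid genes in mice, was not called in either copy. Crem.L stood at 29.99 and 1.99 TPM in testis, against 32.6 and 7.01 TPM in ovary (log2 difference -0.77, SE 1.05, adjusted p = 0.686). Crem.S stood at 14.7 and 1.34 TPM in testis, against 2.5 and 0.25 TPM in ovary (log2 difference 1.53, SE 0.98, adjusted p = 0.286), and passed with the replicate block (adjusted p = 0.0464). The paralog of mybl1, mybl2.S, was lower in testis, at 5.96 and 6.67 TPM in testis, against 113 and 62.9 TPM in ovary (log2 difference -3.54, SE 0.39, adjusted p = 1.54e-06). The cyclin A1 gene, needed for male meiosis in mice, was among the models called lower: ccna1.S stood at 46.7 and 21.4 TPM in testis, against 1938 and 1288 TPM in ovary (log2 difference -5.60, SE 0.52, adjusted p = 2.09e-07). Ccna1.L stood at 379 and 208 TPM in testis, against 1603 and 2278 TPM in ovary (log2 difference -2.76, SE 0.55, adjusted p = 0.000819), with an adjusted p of 0.147 with library weights. For both copies each testis library lay under each ovary library.

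**Figure D4:**
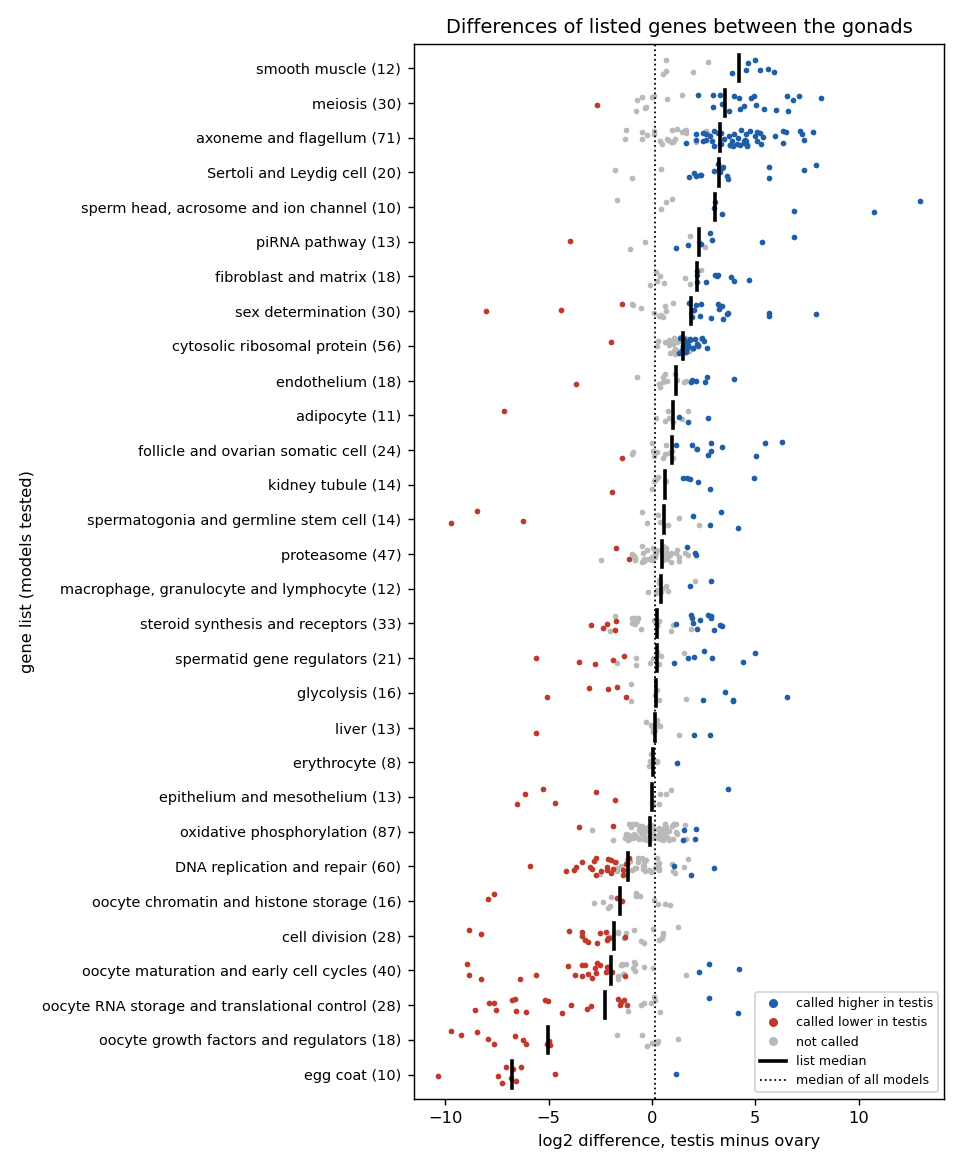
Log2 difference of each tested model (points) on 30 gene lists (rows, with the number of models tested), testis minus ovary, with the list median as a bar and the median of all tested models (0.15) as a dotted line. The smooth muscle list has the highest median (4.21) and the egg coat list the lowest (-6.78). Most sperm and testis lists also lie to the right (axoneme and flagellum median 3.29). The lists of spermatogonia (0.58) and of spermatid gene regulators (0.25) lie near the median of all models.

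Genes of the egg coat were lower in testis. The list of egg coat genes had 9 of 10 tested models called lower and 1 higher (9 and 0 with library weights), with a median of -6.78. The zona pellucida gene zp2.L (Xelaev18045344m) stood at 2.71 and 1.06 TPM in testis, against 466 and 285 TPM in ovary (log2 difference -7.05, SE 0.41, adjusted p = 5.04e-10). Its relative zp4.S stood at 0.14 and 0.1 TPM in testis, against 877 and 2442 TPM in ovary (log2 difference -10.35, SE 0.52, adjusted p = 5.58e-11). Zp3.1, whose protein binds sperm in mammals, stood at 3.01 and 2.76 TPM in testis, against 247 and 539 TPM in ovary (log2 difference -6.56, SE 0.33, adjusted p = 6.57e-11). The amphibian coat genes zpax.L and zpd.L differed by -7.47 and -6.72. All 9 models called lower were lower in both testis libraries than in either ovary library. Their sum with the rest of the list was 42.3 and 27.0 TPM in testis, against 4070 and 5990 TPM in ovary. The 1 model called higher was ovch1.Sp, a protease gene model, at 1.24 and 1.27 TPM in testis, against 0.04 and 0 TPM in ovary, a call lost with library weights (adjusted p = 0.214), while ovch1.L stood at 0.56 and 0.43 TPM in testis, against 211 and 252 TPM in ovary.

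Oocyte growth factors and maternal regulators followed. Of 18 tested models 11 (61.1%) were called lower and none higher, against 12.1% and 14.7% of all tested models. The counts were the same with library weights, and the median was -5.03. Bmp15.L, a growth factor that oocytes send to follicle cells, stood at 0.49 and 0.04 TPM in testis, against 83.1 and 87.05 TPM in ovary (log2 difference -6.11, SE 0.28, adjusted p = 1.65e-11). Its partner gdf9.L stood at 0.61 and 0.16 TPM in testis, against 131 and 13.5 TPM in ovary (log2 difference -5.0, SE 0.59, adjusted p = 3.99e-06), with a lower level in the Ueno ovary. The maternal Oct factor pou5f3.3.L stood at 0.26 and 0.18 TPM in testis, against 589 and 1776 TPM in ovary (log2 difference -9.71, SE 0.43, adjusted p = 1.02e-11). Pou5f3.2.L stood at 0.36 and 0.81 TPM in testis, against 82.03 and 171 TPM in ovary (log2 difference -6.25, SE 0.28, adjusted p = 1.63e-11). The family was not uniform: pou5f3.1.L was under 1 TPM in all 4 libraries and pou5f3.2.S stood at 0.95 and 1.1 TPM in testis, against 1.3 and 1.54 TPM in ovary, neither of them called. Foxh1.L, the forkhead partner of Smad proteins in Nodal signalling, stood at 0.08 and 0.05 TPM in testis, against 373 and 1118 TPM in ovary (log2 difference -9.25, SE 0.38, adjusted p = 3.63e-12). Wnt11b.L, a maternal ligand of dorsal axis formation, stood at 0.39 and 0.73 TPM in testis, against 138 and 174 TPM in ovary (log2 difference -6.65, SE 0.21, adjusted p = 1.22e-13). The model gdf1.1 was listed at 0 in all 4 gonad libraries. Tbpl2.L, the oocyte form of the TATA-binding protein, stood at 22.2 and 2.22 TPM in testis, against 85.9 and 7.99 TPM in ovary and was not called (log2 difference -1.69, SE 0.77, adjusted p = 0.119), and its difference turned on single libraries. It was -3.12 without the Taira testis and -3.33 without the Ueno ovary, but -0.27 without the Ueno testis and -0.06 without the Taira ovary.

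Genes that store and silence RNA in the oocyte were mostly lower in testis, 19 of 28 tested models (67.9%) against 2 (7.14%) higher. The counts were 13 and 1 with library weights, and the median was -2.29. Over all tested models the shares were 12.1% lower and 14.7% higher. The 42S storage particle of young oocytes keeps 5S ribosomal RNA and transfer RNA. Its protein genes 42Sp43.L and 42Sp50.L stood at 0.15 and 0.25 TPM in testis, against 136 and 376 TPM in ovary (log2 difference -7.57, SE 0.31, adjusted p = 3.63e-12), and at 0.76 and 0.56 TPM in testis, against 72.6 and 176 TPM in ovary (log2 difference -6.11, SE 0.38, adjusted p = 9.71e-10). Gtf3a.L, the transcription factor IIIA that binds both the 5S gene and its RNA, differed less, at 91.05 and 92.8 TPM in testis, against 276 and 198 TPM in ovary (log2 difference -1.34, SE 0.26, adjusted p = 0.000775), and lost the call with library weights (adjusted p = 0.106). Of the vegetally placed RNAs of the germ plasm, nanos1.L stood at 0.21 and 0.42 TPM in testis, against 211 and 1152 TPM in ovary (log2 difference -8.56, SE 0.48, adjusted p = 2.62e-10). Velo1.L stood at 0.15 and 0 TPM in testis, against 466 and 28.2 TPM in ovary (log2 difference -6.77, SE 0.82, adjusted p = 5.01e-06). The 2 ovary libraries differed in opposite ways in these genes, with nanos1.L higher in the Ueno ovary and velo1.L in the Taira ovary. Zar1.S, an RNA-binding maternal factor, stood at 0 and 0.28 TPM in testis, against 207 and 336 TPM in ovary (log2 difference -7.87, SE 0.27, adjusted p = 3.59e-13). Patl2.L, of the oocyte messenger storage particles, stood at 4.3 and 2.1 TPM in testis, against 435 and 374 TPM in ovary (log2 difference -6.64, SE 0.42, adjusted p = 1.21e-09). Cpeb1.L, which controls the poly-A tails of stored messengers, stood at 13.4 and 11.3 TPM in testis, against 147 and 274 TPM in ovary (log2 difference -3.92, SE 0.41, adjusted p = 9.83e-07). The models called higher in testis on this list were dazl.L, described above, and ddx6.L (log2 difference 2.77), the second only without library weights (adjusted p = 0.116 with them). The difference of ddx6.L was 0.95 without the Taira testis, 1.64 without the Ueno ovary and 4.58 without the Ueno testis.

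Genes of meiotic maturation and of the embryonic cell cycle were also lower in testis, 21 of 40 tested models (52.5%) against 3 (7.5%) higher. The counts were 15 and 1 with library weights, and the median was -1.98. Over all tested models the shares were 12.1% lower and 14.7% higher. Mos.L, the kinase that holds the egg in metaphase, stood at 4.48 and 6.11 TPM in testis, against 521 and 534 TPM in ovary (log2 difference -6.40, SE 0.43, adjusted p = 3.27e-09). Ccnb5.L, a B-type cyclin, stood at 0.19 and 0.06 TPM in testis, against 953 and 328 TPM in ovary (log2 difference -8.96, SE 0.52, adjusted p = 4.43e-10). Birc5.1.S, a survivin gene, stood at 0.26 and 0.44 TPM in testis, against 405 and 921 TPM in ovary (log2 difference -8.83, SE 0.38, adjusted p = 8.37e-12). All 3 were lower in both testis libraries than in either ovary library. In contrast spdya.L, which in frogs encodes the cyclin-dependent kinase activator Speedy, stood at 67.3 and 10.03 TPM in testis, against 0.68 and 0.3 TPM in ovary (log2 difference 4.21, SE 0.48, adjusted p = 2.53e-06), and the phosphatase genes cdc25b.L and cdc25b.S were higher by 2.78 and 2.26, both only without library weights. The phosphatase genes cdc25a.S and cdc25c.L were lower, by differences of -3.72 and -3.41. Maturation promoting factor itself showed smaller differences: ccnb1.2.L stood at 1130.4 and 238 TPM in testis, against 1409 and 1125 TPM in ovary and was not called (log2 difference -1.28, SE 0.58, adjusted p = 0.118). Cdk1.S stood at 293 and 80.7 TPM in testis, against 516 and 445 TPM in ovary and was not called (log2 difference -1.63, SE 0.61, adjusted p = 0.0568), but passed with the replicate block (adjusted p = 0.011). Without the Taira testis the differences of ccnb1.2.L and cdk1.S were -2.40 and -2.55, but without the Ueno testis they were -0.16 and -0.71.

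The overlapping list of cell division genes had 14 of 28 models called lower and none higher (10 lower with library weights, median -1.84). Besides the models already named, both copies of the mitotic kinase genes aurka and plk1 were lower, with differences of -3.10 and -2.13, and of -2.53 and -3.40. Among DNA replication and repair genes 23 of 60 models (38.3%) were called lower and 3 (5.0%) higher, against 12.1% and 14.7% of all models. The median was -1.16. With library weights these counts were 2 and 0, and with the replicate block 28 and 5. The share lower with library weights did not exceed the 4.26% of all tested models in that fit. Mcm3.L, of the replicative helicase, stood at 0.42 and 0 TPM in testis, against 268 and 17.9 TPM in ovary (log2 difference -5.90, SE 0.74, adjusted p = 8.18e-06). Among the helicase genes mcm5.S was called higher and stood at 36.3 and 25.6 TPM in testis, against 5.94 and 1.3 TPM in ovary (log2 difference 2.98, SE 0.90, adjusted p = 0.0181), with an adjusted p of 0.409 with library weights. Without the Taira testis the difference of mcm5.S was 2.73, and without the Ueno ovary 2.18. The Taira library exceeded the Ueno library in both gonads for mcm3.L and mcm5.S.

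Of 16 tested models of oocyte chromatin 4 were called lower, against 12.1% of all tested models, and none higher, with 2 lower with library weights and 9 with the replicate block (median -1.56). The oocyte linker histone copies h1foo.L and h1foo.S stood at 0 and 0.05 TPM in testis, against 448 and 136 TPM in ovary (log2 difference -7.92, SE 0.48, adjusted p = 7.37e-10), and at 0.29 and 0.04 TPM in testis, against 527 and 100.2 TPM in ovary (log2 difference -7.64, SE 0.59, adjusted p = 2.06e-08). The order was the reverse of that of the linker histone h1fx.S. Dnmt1.L, the maintenance DNA methyltransferase, stood at 68.8 and 27.4 TPM in testis, against 629 and 61.2 TPM in ovary and was not called (log2 difference -2.15, adjusted p = 0.113), but passed with the replicate block (adjusted p = 0.00453). Its difference was -3.82 without the Ueno ovary and -0.48 without the Taira ovary.

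Steroid genes were called in both directions. Of 33 tested models 12 (36.4%) were called higher and 5 (15.2%) lower (6 and 2 with library weights, median 0.26). Of all tested models 14.7% were called higher and 12.1% lower, so the share of steroid models called lower was near that of all models. Steroid receptors were among the higher models, with the progesterone receptor pgr.L at 28.2 and 4.64 TPM in testis, against 0.36 and 0.13 TPM in ovary (log2 difference 3.37, SE 0.67, adjusted p = 0.000786), and with the androgen receptor ar.1 at 7.82 and 4.11 TPM in testis, against 0.54 and 0.2 TPM in ovary (log2 difference 2.30, SE 0.44, adjusted p = 0.000533), both of which lost the call with library weights (adjusted p = 0.0743 for pgr.L and 0.0921 for ar.1). Without the Taira testis the difference of pgr.L was 2.19. Steroid 5-alpha-reductase, which makes the stronger androgen dihydrotestosterone, was higher as srd5a2.L, at 16.2 and 4.58 TPM in testis, against 0 and 0 TPM in ovary (log2 difference 3.29, SE 0.30, adjusted p = 1.77e-07). The gene srd5a1.S, of the same enzyme family, ran the other way but was not called. It stood at 38.1 and 7.49 TPM in testis, against 116 and 31.9 TPM in ovary, with overlapping groups (log2 difference -1.77, SE 0.65, adjusted p = 0.0525). With the replicate block srd5a1.S passed (adjusted p = 0.0231). Another relative, srd5a3.L, which acts in the making of dolichol, was lower, at 4.28 and 4.95 TPM in testis, against 18.8 and 42.8 TPM in ovary (log2 difference -2.39, SE 0.41, adjusted p = 0.000224). Cyp21a2.1.L, the 21-hydroxylase of corticoid synthesis, was lower too, at 0.86 and 0.84 TPM in testis, against 14.9 and 11.5 TPM in ovary (log2 difference -2.93, SE 0.25, adjusted p = 7.06e-08), and kidney was its highest somatic tissue, at 218 TPM.

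Beside oocyte factors, the 12 named models with the largest difference in favour of ovary held junction, metabolic and cytoskeletal genes. Cldn6.1.L and cldn6.2.L, claudins of tight junctions, stood at 0 and 0.37 TPM in testis, against 703 and 2409 TPM in ovary (log2 difference -10.12, SE 0.49, adjusted p = 3.95e-11) and at 0 and 0.11 TPM in testis, against 379 and 1034 TPM in ovary (log2 difference -9.22, SE 0.45, adjusted p = 4.47e-11), and the copy cldn6.2.S differed by -8.86. Tuba4.L, an alpha tubulin, stood at 0.16 and 0.05 TPM in testis, against 619.8 and 670.5 TPM in ovary (log2 difference -9.19, SE 0.43, adjusted p = 2.54e-11), an order opposite to that of tubal3.L, the alpha tubulin described above. Avd.2.L, an avidin gene whose product binds biotin in birds, stood at 0.27 and 0 TPM in testis, against 611 and 1214 TPM in ovary (log2 difference -9.58, SE 0.57, adjusted p = 6.36e-10). Grhpr.2.L, a glyoxylate reductase, stood at 0.12 and 0.56 TPM in testis, against 1151 and 1917 TPM in ovary (log2 difference -10.14, SE 0.54, adjusted p = 1.26e-10). Zfp36l2.1.L, an RNA-decay factor, stood at 0.13 and 0.18 TPM in testis, against 331 and 592 TPM in ovary (log2 difference -8.59, SE 0.35, adjusted p = 4.21e-12). Each was under 1 TPM in both testis libraries, apart from cldn6.2.S, which stood at 2.86 TPM in the Ueno testis.

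Housekeeping lists differed by amounts that depended on the list and on the fit. Cytosolic ribosomal protein genes had 24 of 56 models (42.9%) called higher and 1 (1.79%) lower (median 1.5, or 2.26 after quantile normalization). The counts were 3 and 0 with library weights and 45 and 1 with the replicate block. With library weights the share called higher was near the 5.49% of all tested models. The sum of the ribosomal protein list was 34200 and 76700 TPM in testis, against 10400 and 25000 TPM in ovary. The Ueno library held more than the Taira library in each gonad, and the Taira testis still exceeded the Ueno ovary. Rpl3.S, a protein of the large subunit and the 1 model called lower, stood at 104 and 147 TPM in testis, against 423 and 551 TPM in ovary (log2 difference -1.96, SE 0.33, adjusted p = 0.000174) and lost the call with library weights (adjusted p = 0.0609). Oxidative phosphorylation gave 4 higher and 2 lower of 87 (none with library weights, 10 and 8 with the block), and the median, -0.10, was 0.33 after quantile normalization. The proteasome gave 3 and 2 of 47 (none with library weights, 6 and 3 with the block, median 0.46). The shares called higher and lower were 4.6% and 2.3% for oxidative phosphorylation and 6.38% and 4.26% for the proteasome. All lay under those of all tested models, 14.7% and 12.1%.

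Glycolysis had 5 of 16 tested models (31.2%) called higher and 5 (31.2%) lower, against 14.7% and 12.1% of all tested models. With library weights the counts were 4 and 1, and the median difference was 0.18. Eno4.L, the enolase of the sperm tail in mice, stood at 205 and 111 TPM in testis, against 0.56 and 0.71 TPM in ovary (log2 difference 6.54, SE 0.32, adjusted p = 3.55e-11). Hexokinase 1, as hk1.S, stood at 38.4 and 8.43 TPM in testis, against 0.61 and 0.03 TPM in ovary (log2 difference 3.90, SE 0.64, adjusted p = 0.000138). Hexokinase 2, as hk2.S, stood at 2.28 and 3.02 TPM in testis, against 170.5 and 85.2 TPM in ovary (log2 difference -5.06, SE 0.53, adjusted p = 8.62e-07). The 2 hexokinase genes ran in opposite directions with no overlap of the gonads in either.

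Markers of several other cell types differed between the gonads as well, and their part in the results above was not tested. Of the marker models that follow, cd79a.L of B cells, plin1.L of fat cells, des.2.L and des.2.S of muscle and slc12a3.L of kidney tubules were listed at 0 in both ovary libraries but not in both testis libraries, where none exceeded 1.37 TPM. Smooth muscle genes had 7 of 12 models called higher in testis and none lower (2 higher with library weights, median 4.21), with a sum of 467 and 1890 TPM in testis, against 13.4 and 19.1 TPM in ovary. Tagln.S, the actin-binding protein transgelin, stood at 78.97 and 72.7 TPM in testis, against 2.39 and 0.7 TPM in ovary (log2 difference 5.0, SE 0.51, adjusted p = 7.18e-07). Fibroblast and matrix genes had 10 of 18 higher and none lower (1 higher with library weights), with a sum of 405 and 939 TPM in testis, against 156 and 80.6 TPM in ovary, and col3a1.S, a fibrillar collagen, stood at 63.95 and 106 TPM in testis, against 3.12 and 1.54 TPM in ovary (log2 difference 4.69, SE 0.84, adjusted p = 0.000325), or an adjusted p of 0.134 with library weights. Endothelial genes gave 6 higher (33.3%) and 1 lower (5.56%) of 18 (none with library weights), and their sums were 95.3 and 80.2 TPM in testis, against 45.9 and 51.4 TPM in ovary. Erythrocyte genes summed to like shares of TPM, 165 and 251 TPM in testis, against 203 and 184 TPM in ovary, and the amount of blood was not measured. Of 8 erythrocyte models 1 (12.5%) was called higher and none lower, a share under the 14.7% of all tested models. Leukocyte genes had 2 of 12 (16.7%) called higher and none lower, a share near that of all tested models, with sums of 31.4 and 28.1 TPM in testis, against 6.92 and 2.05 TPM in ovary. Of the kidney tubule genes 6 of 14 were called higher and 1 lower (4 and 0 with library weights), with sums of 99.2 and 30.6 TPM in testis, against 10.2 and 5.63 TPM in ovary, among them the endocytic receptor lrp2.L at 56.8 and 16.6 TPM in testis, against 0.07 and 0.01 TPM in ovary (log2 difference 4.94, SE 0.54, adjusted p = 1.52e-06). Adipocyte genes gave 3 higher (27.3%) and 1 lower (9.09%) of 11 (0 and 1 with library weights). Liver genes gave 2 (15.4%) and 1 (7.69%) of 13, the same counts as with library weights. Of all tested models 14.7% were called higher and 12.1% lower, or 5.49% and 4.26% with library weights. The adipocyte share called higher lay above that of all models, but it rested on 3 models, none of them called with library weights. The adipocyte model called lower was dgat2.L, which makes triglyceride, at 2.19 and 0.92 TPM in testis, against 311 and 406 TPM in ovary (log2 difference -7.17, SE 0.93, adjusted p = 1.18e-05).

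The epithelial list ran the other way. It had 6 of 13 models (46.2%) called lower in testis and 1 (7.69%) higher, against 12.1% and 14.7% of all tested models. With library weights the counts were 5 and 0. Its median was nonetheless 0.01, or -0.64 after quantile normalization. Epcam.S, a cell adhesion gene, stood at 30.4 and 8.49 TPM in testis, against 957 and 455 TPM in ovary (log2 difference -5.26, SE 0.69, adjusted p = 1.26e-05). The keratin gene krt18.S stood at 1.05 and 2.4 TPM in testis, against 228 and 254 TPM in ovary (log2 difference -6.52, SE 0.59, adjusted p = 1.38e-07). Cdh1.L, encoding E-cadherin, was the model called higher, at 13.5 and 21.5 TPM in testis, against 0.33 and 0.5 TPM in ovary (log2 difference 3.68, SE 0.72, adjusted p = 0.000779), only without library weights (adjusted p = 0.0832).

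Xenopus laevis is an allotetraploid, and many of its genes survive as a long (L) and a short (S) homeolog from its parent species. The ratio of the 2 copies was called different between the gonads in many pairs. Where both copies are nearly absent from 1 gonad, the 1 TPM added to each brings their ratio there close to even. A call can then follow from the level of the pair alone, and how many calls do so was not tested. Of 7749 tested pairs, the log2 ratio of L to S, with 1 TPM added to each, was called higher in testis in 1327 (17.1%) and lower in 1150 (14.8%), and with library weights in 721 (9.3%) and 646 (8.34%). In the 4 gonad libraries alone 252 pairs were called. The copies are alike in sequence, and reads shared between them were divided by the authors' estimation, so each ratio carries that uncertainty. Of 2941 pairs with at least 1 copy called between the gonads, 413 had both copies higher, 420 both lower, and 90 had copies called in opposite directions. In the rest 1 copy alone was called, higher in 1139 and lower in 879. In 150 called pairs the leading copy changed, with L ahead of S by at least 1 on the log2 scale in one gonad and behind by at least 1 in the other.

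**Figure D5:**
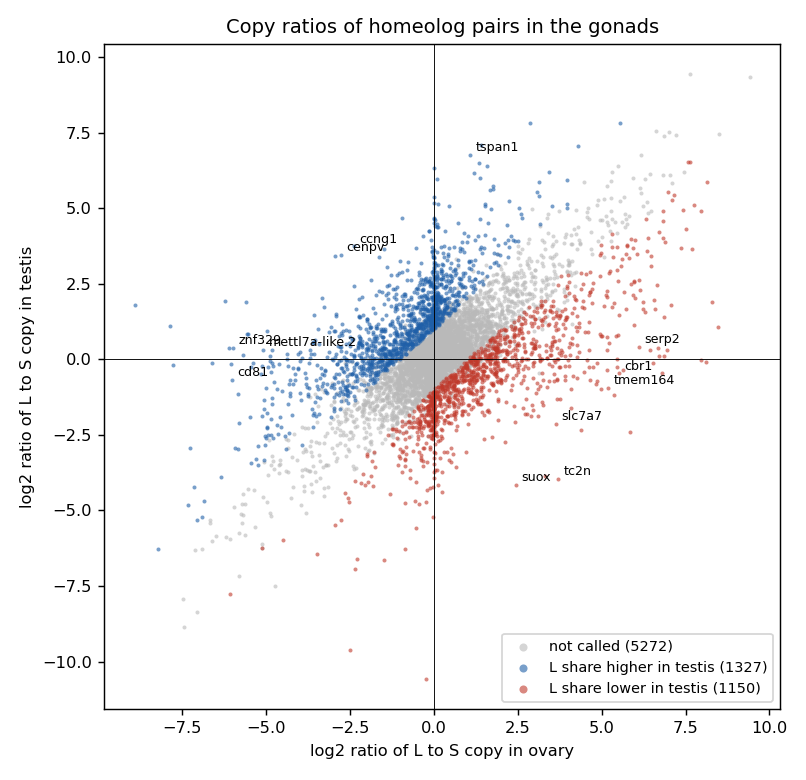
Log2 ratio of the L to the S copy in testis (vertical axis) and in ovary (horizontal axis) for 7749 homeolog pairs, as means of 2 libraries each, with the 12 named pairs labelled. Pairs with a higher ratio in testis (blue, 1327) lie above the diagonal and pairs with a lower ratio (red, 1150) below it. For cenpv, ccng1, tc2n, suox and slc7a7 the leading copy changes, with a lead of at least 1 in each gonad. Znf329, mettl7a-like.2, tmem164 and cbr1 lie in the same quadrants, with a lead under 1 in testis.

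Cenpv, a centromere protein, was one such pair: its L copy stood at 35.5 and 158 TPM in testis, against 0.84 and 3.01 TPM in ovary. Its S copy stood at 2.92 and 11.4 TPM in testis, against 9.69 and 31.2 TPM in ovary. The L copy led in testis and the S copy in ovary, with log2 ratios of 3.45 in testis and -2.77 in ovary (difference 6.22, SE 0.41, adjusted p = 2.54e-09). In the pair tc2n the L copy stood at 0.85 and 0.08 TPM in testis, against 43.8 and 4.07 TPM in ovary, and the S copy at 64.6 and 6.42 TPM in testis, against 0.28 and 0.04 TPM in ovary. Each gonad therefore used a different copy of tc2n nearly alone (ratio difference -7.67, SE 0.82, adjusted p = 1.02e-06).

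The zinc finger pair znf329 showed a copy that was low in one gonad only. Its L copy stood at 57.99 and 32.3 TPM in testis, against 0.37 and 0.14 TPM in ovary, and its S copy at 36.6 and 29.8 TPM in testis, against 66.6 and 91.03 TPM in ovary (ratio difference 6.36, SE 0.39, adjusted p = 9.64e-10). Carbonyl reductase, cbr1, differed in the other direction, its S copy standing at 6.98 and 14.1 TPM in testis, against 1.36 and 2.01 TPM in ovary. The L copy of cbr1 stood at 3.27 and 13.9 TPM in testis, against 76.4 and 193 TPM in ovary (ratio difference -5.98, SE 0.48, adjusted p = 3.05e-08). Both copies of these pairs were present in testis, and only one was above a few TPM in ovary. The other named pairs with a higher ratio in testis were ccng1 (cyclin G1), tspan1 and cd81 (tetraspanins) and mettl7a-like.2, with ratio differences of 6.13, 5.69, 5.33 and 5.40. Those with a lower ratio were suox (sulfite oxidase), tmem164, slc7a7 (an amino acid transporter) and serp2, with -6.61, -6.14, -5.76 and -5.71.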

How the data were processed

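RNA of whole tissues was sequenced as non-stranded poly-A libraries, per the labels. BWA (0.7.10) and RSEM (1.2.19) appear in the submitters' processing notes. The deposited TPM values were estimated by the authors against a set of cDNA models, per the labels, and no counts or depth were used here. Reads shared by near-identical models, L and S copies among them, are split by that estimate, and without strand overlapping genes cannot be told apart.

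Values were taken as log2(TPM + 1) for models with at least 1 TPM in at least 2 of 28 libraries. limma 3.58.1 (R 4.3.3) fitted 1 mean per tissue with a mean-variance trend over all 28 libraries (14 residual degrees of freedom), and p-values were Benjamini-Hochberg adjusted over all tested models. Homeolog ratios were fitted likewise. With 1 TPM added before the logarithm, differences of low genes are too small. Replicates are separate animals, numbered by dataset. Testis and ovary donors of 1 dataset were siblings, per the labels, and the deviations of the 2 gonads from their means correlated within a dataset (r = 0.694), so a fit with the dataset as a replicate block was also made.

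Members and gene lists were chosen with earlier results of these data known. The rule for names took the 12 models per direction with the largest called difference and no overlap of libraries, 52 key symbols, up to 3 called models per direction and 2 uncalled ones per list, and 6 homeolog pairs per direction. The text gives part of the models so named, and 1 of them is not reported here. Outside that rule, and chosen after their values were seen, were cd79a.L, plin1.L, des.2.L, des.2.S, slc12a3.L, 42Sp43.L, 42Sp50.L, amhr2.L, cdc25a.S, cdc25c.L, dhh.S, dmw, dnah1.L, dnai2.S, gata4.L, gata4.S, ift172.L, lhcgr.L, nr5a1.L, patl2.L, rsph6a.L, stra8.S, tagln.S, wnt11b.L, wt1.S, zpbp2.L and zpd.L. The alternatives were pseudocounts of 0.1 and 5 TPM, no filter and a minimum of 5 TPM, scaling and quantile normalization, library weights, no trend, the gonads alone, the replicate block, a filter on both homeologs and leaving out each library.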

Additional observations from a re-analysis of the deposited data

Results flagged for a closer look

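The oocyte factor figla.L had opposite signs in the 2 datasets, with a log2 difference of 0.47 in the Taira pair and -1.39 in the Ueno pair. With 1 library per gonad and dataset this opposition was not tested.

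Egg coat transcripts were also present outside the gonads, in data that the comparison of testis and ovary does not use. The summed egg coat list stood at 257 and 371 TPM in the kidney libraries, above the highest of the other 22 somatic libraries, a spleen library at 22.9 TPM. This was not particular to coat genes. Kidney also had the highest somatic mean for other oocyte models, such as mos.L (31.6 TPM), ccnb5.L (38.9 TPM) and h1foo.L (18.7 TPM). It did not for cpeb1.L, whose highest somatic mean was in eye (10.6 TPM). The source of these kidney transcripts was not tested. Most tissues, but not testis, came from the same 2 females as the ovaries, per the study's design text.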

How the results depend on the processing

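The counts of calls depended most on the spread taken for the gonads. Models called higher were 2786 with a pseudocount of 5 TPM, 1828 with library weights and 0 in the gonads alone, and models called lower were 1420 with library weights and 0 in the gonads alone. Pairs with a higher homeolog ratio were 843 with a pseudocount of 5 TPM, 721 with library weights and 140 in the gonads alone, and pairs with a lower ratio were 646 and 112 under the last 2 settings. Leaving out 1 library gave between 3190 and 7040 models higher and between 3174 and 5906 lower, and between 1049 and 1406 pairs higher and between 958 and 1260 lower. With the replicate block for dataset and clutch, 6373 models were called higher and 5143 lower, and 1426 pairs higher and 1262 lower. The block moved these counts by less than 1.5 times and changed no call of a model given in the text other than those of ddx4.L, cdk1.S, dnmt1.L, crem.S and srd5a1.S. The other settings kept all 4 counts within 1.5 times. Of the models and pairs given in the text, srd5a1.S apart, 17 lost their call with library weights, 6 with quantile normalization and 3 with median-of-ratios scaling, while 0, 5 and 4 gained one, and no called one changed direction under these 3 settings. In the gonads alone 136 of them lost their call. Values reversed were those of figla.L (0.20 with quantile normalization and 0.36 without the Ueno testis, against -1.28 without the Taira testis) pou5f3.1.L (-0.44 with quantile normalization), amh.S (from -0.67 to 1.53 over the libraries left out) and crem.L (from -2.46 to 0.92), none of them called as reported. Causes were not tested. Read depth cannot be recovered from TPM, and it limits the low values in a way not measured here.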

Other observations

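The gene families below were chosen after their values were seen. Of all tested models 14.7% were called higher and 12.1% lower, or 5.49% and 4.26% with library weights. Among 12 tested histone models 5 were called higher in testis and 5 lower, the same counts as with library weights. The variant histone copy h2afv.L stood at 185 and 297 TPM in testis, against 5.52 and 12.8 TPM in ovary (log2 difference 4.64, SE 0.40, adjusted p = 8.42e-08), while its near relative h2afz.S stood at 25.97 and 17.2 TPM in testis, against 290.4 and 443 TPM in ovary (log2 difference -4.02, SE 0.37, adjusted p = 1.65e-07). Both are forms of the H2A.Z variant. H2afy.L, the macroH2A variant, stood at 54.2 and 29.01 TPM in testis, against 0.28 and 0.22 TPM in ovary (log2 difference 5.03, SE 0.33, adjusted p = 2.39e-09), and hist1h2aa.L, an H2A gene, at 1.06 and 0.81 TPM in testis, against 357 and 529 TPM in ovary (log2 difference -7.82, SE 0.35, adjusted p = 1.11e-11). Of 62 tested forkhead models 14 were called higher and 7 lower (5 and 6 with library weights). Foxn4.L stood at 71.6 and 47.95 TPM in testis, against 0 and 0.03 TPM in ovary (log2 difference 5.88, SE 0.24, adjusted p = 2.95e-12), and foxj1.2.L, a relative of the master regulator of motile cilia, at 59.4 and 58.1 TPM in testis, against 2.12 and 2.49 TPM in ovary (log2 difference 4.18, SE 0.24, adjusted p = 4.39e-10). On the ovary side foxi2.L, a maternal activator of ectoderm genes, stood at 0.87 and 0.39 TPM in testis, against 114 and 181 TPM in ovary (log2 difference -6.49, SE 0.21, adjusted p = 2.56e-13), and foxr1.L at 0.17 and 0.26 TPM in testis, against 68.9 and 121 TPM in ovary (log2 difference -6.25, SE 0.38, adjusted p = 9.37e-10).

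Among 28 tested SOX models 7 were called higher in testis and 4 lower (5 and 3 with library weights). Over all tested models the shares were 14.7% and 12.1%, and the SOX share called lower was near the second. Sox8.L, a close relative of sox9, stood at 39.6 and 7.87 TPM in testis, against 0.06 and 0 TPM in ovary (log2 difference 4.20, SE 0.53, adjusted p = 8.18e-06), and sox17b.1.S, an endoderm factor, at 0.1 and 0.28 TPM in testis, against 3.44 and 3.69 TPM in ovary (log2 difference -1.94, SE 0.13, adjusted p = 1.93e-09). Of 8 DMRT models 3 were called higher and none lower, with the same counts with library weights. Dmrt3.S, a relative of dmrt1, stood at 9.12 and 7.05 TPM in testis, against 0.08 and 0.08 TPM in ovary (log2 difference 3.06, SE 0.20, adjusted p = 2.42e-09). Among 27 tubulin models 10 were called higher and 2 lower (5 and 2 with library weights), the lower ones being tuba4.L and tuba4.S. Among 37 kinesin models 5 were called higher and 1 lower (3 and 0 with library weights), shares under those of all tested models, among them both copies of the axonal motor gene kif1a (log2 differences 2.26 and 2.91). Claudins gave 2 higher and 5 lower of 27 (0 and 5 with library weights). The 2 claudin models called higher were cldn5.L and cldn5.S, of vessel junctions, with log2 differences of 2.56 and 3.95, and adjusted p-values of 0.223 and 0.158 with library weights.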
